A study of Mus musculus with 6 samples.

Results

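Ciliated cells of the airway lining were followed in single-cell RNA counts of mouse lung. Barcodes were chosen by measured values, the levels of 4 marker genes. A barcode was taken as a ciliated cell when the UMIs (unique molecular identifiers, each standing for 1 captured transcript) of Foxj1, Tmem212, Ccdc153 and Dynlrb2 summed to 5 or more. It also had to hold at least 500 genes, at most 15% mitochondrial UMIs, less than 5% surfactant UMIs (Sftpc, Sftpb and Sftpa1), at most 1 UMI of the endothelial genes Cdh5, Pecam1 and Cldn5, no UMI of the leukocyte gene Ptprc and at most 1 UMI of the leukaemia genes Trap1a and Trnp1. This left 184 ciliated barcodes of 28516 deposited, with 28, 24 and 59 in the libraries AML 1, 2 and 3, and 17, 31 and 25 in the libraries Control 1, 2 and 3.

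A multiciliated airway cell carries a field of beating cilia that moves mucus out of the lung. Each cilium grows from a basal body and is built around microtubules, on which dynein arms generate the beat, while radial spokes, a central pair and nexin links set its form. Foxj1 and RFX factors are the transcription factors known to switch on the genes of this machinery, and intraflagellar transport carries its parts into the cilium.

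The series compared non-haematopoietic cells (the niche) of lungs infiltrated by Trp53 R172H/Δ acute myeloid leukaemia (AML, 3 libraries) with those of normal lungs (Control, 3 libraries). Every lung was digested with Liberase and DNaseI and the niche cells were sorted, and 10x 3' v3.1 libraries were made. GFP-positive leukaemia cells were sorted as well and mixed into the AML suspensions at 20%, with 80% niche cells, so the share of any niche cell among all barcodes differs by design. The labels give no strain, age or sex, and do not say whether each library came from a separate animal, so the p-values below measure only the spread between libraries, which may be technical.

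The 6 libraries held 2234 to 6722 barcodes and 19060359 to 46018541 UMIs. After the filters on genes and mitochondrial UMIs 24640 barcodes remained, of which 20912 carried no Ptprc and at most 1 UMI of the leukaemia markers. Pairs of libraries shared 1 to 24 barcode sequences, and none of those was a ciliated barcode in both libraries of a pair. The ciliated barcodes summed to 330523, 230227 and 421602 UMIs in AML 1, 2 and 3, and to 504662, 497626 and 417629 UMIs in Control 1, 2 and 3. A further 55 barcodes past the filters had 5 or more UMIs of the marker genes but failed another criterion, most often that of the endothelial genes (41 barcodes), and were left out. No barcode was removed as a doublet. Among the 895 barcodes with the highest Scrublet scores of their libraries were 5 of the 184, with 2 in AML 3 and 3 in Control 2.

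The marker sum that chose the barcodes had a median of 75 UMIs and a highest value of 316, and 165 of the 184 barcodes had 20 or more. Just inside the threshold, 8 barcodes had 5 to 9 marker UMIs at 900 to 2989 UMIs in all, and genes of the cilium made up 2.72 to 3.94% of their UMIs. Just outside, 4 barcodes that met every other criterion had 3 to 4 marker UMIs at 713 to 2760 UMIs in all, and cilium genes made up 2.38 to 4.28%. Both sets lay within the range of the other ciliated barcodes, 2.20 to 5.11%. Tmem212 was present in 184 barcodes, Ccdc153 in 181, Dynlrb2 in 181 and Foxj1 in 177.

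The genes that set these barcodes apart were those of motile cilia, which is what the name of the cell type implies. As a description with no test, the 20 genes with the largest ratio of counts per 1000000 UMIs (CPM) over all other barcodes, among the 1505 genes at 100 CPM or more in ciliated barcodes of every library, had ratios of 216 to 341. The marker genes Tmem212, Ccdc153 and Foxj1 held ranks 1, 3 and 5 with ratios of 341, 280 and 269, which follows from the rule, and Dynlrb2 lay outside the 20 genes. The 17 others included Dnah5, the heavy chain of the outer dynein arm, with a ratio of 259 and 577 to 961 CPM over the libraries. Dnah6, a heavy chain of the inner arm, had a ratio of 216 and 565 to 862 CPM. Rsph1, a protein of the radial spoke head, had a ratio of 235 and 723 to 1039 CPM. Sntn, a component of the tip of motile cilia, had a ratio of 227 and 404 to 657 CPM. Cfap44, a protein of the cilium, had a ratio of 218. Fam183b held rank 2 with a ratio of 320. Open reading frames with clone names, among them 1110017D15Rik, 1700016K19Rik, 1700024G13Rik and 1700007K13Rik, filled further places with ratios of 217 to 270.

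**Figure D1:**
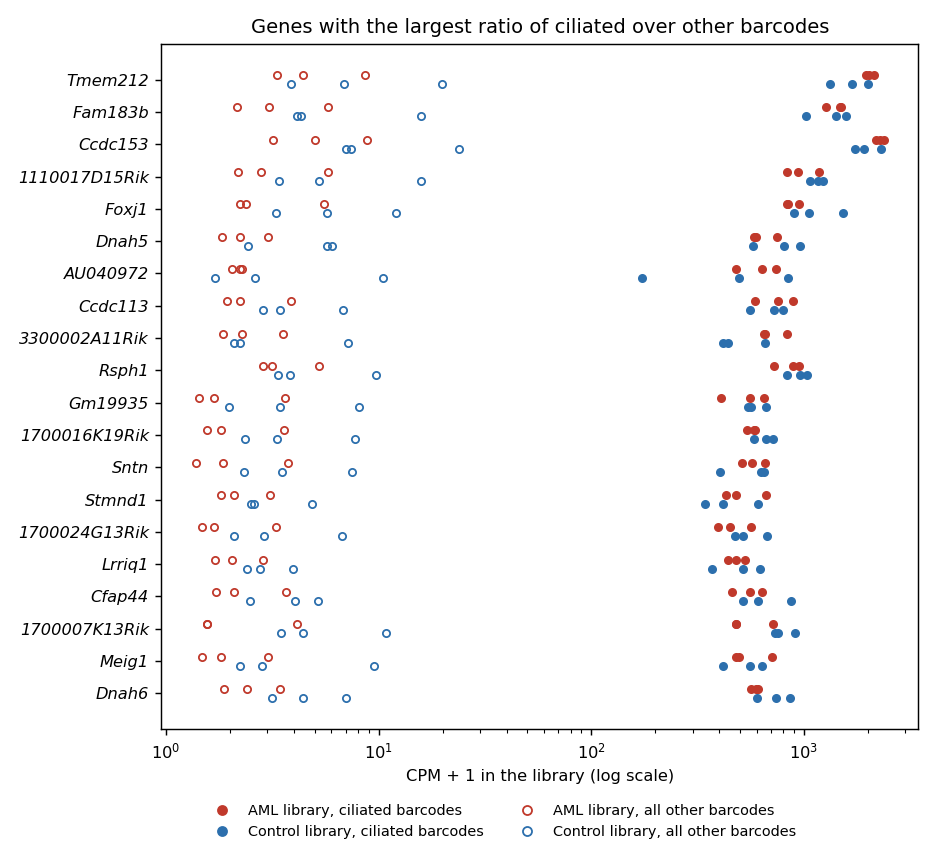
The 20 genes with the largest ratio of ciliated over other barcodes, with CPM + 1 on a log axis; filled points are the ciliated barcodes and open points all other barcodes of each AML (red) and Control (blue) library. The lowest filled point, AU040972 in Control 1, is at 172 CPM, and no open point passes 22.8 CPM.

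Genes of the cilium often carry an X-box, the site that RFX factors bind, close to the start of transcription. Upper case marks the letters searched as an X-box on either strand, which are GTNNCC, then 3 free bases, then G, 1 free base and AAC, in the stretches that lead up to the start site of the most abundant genes with a match there, and the 7 highest are shown to let their sites be compared. The sequences are RefSeq promoters of the build GRCm38.p6, read 5′ to 3′ towards the gene. Cfap298 (chr16:90935004-90935057, minus strand) serves dynein arm assembly, and Cfap44 (chr16:44394752-44394798, plus strand) is a protein of the cilium. Pifo (chr3:106001498-106001537, minus strand) and Cfap45 (chr1:172521091-172521129, plus strand) lie on the microtubules of the axoneme or at its base. Hydin (chr8:110266936-110266976, plus strand) is a protein of the central pair and Cfap206 (chr4:34730207-34730249, minus strand) one of the radial spokes. Lrriq1 (chr10:103236323-103236361, minus strand) was among the 20 genes with the largest ratio.
Cfap298: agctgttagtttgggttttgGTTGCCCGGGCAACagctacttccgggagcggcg
Cfap44: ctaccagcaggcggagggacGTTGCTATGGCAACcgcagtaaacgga
Pifo: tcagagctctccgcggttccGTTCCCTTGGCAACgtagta
Cfap45: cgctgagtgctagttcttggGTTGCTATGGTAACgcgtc
Hydin: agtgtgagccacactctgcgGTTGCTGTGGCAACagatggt
Cfap206: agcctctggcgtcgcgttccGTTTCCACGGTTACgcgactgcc
Lrriq1: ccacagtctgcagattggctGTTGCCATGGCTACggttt
In 6 of these the match begins 19 to 27 bases before the start site, and in Cfap298 it begins 188 bases before it. Pifo holds a further match 71 bases before its start. Over the cilium genes and the 20 genes with the largest ratio, the upstream matches listed began 15 (Ccdc114) to 219 bases (Ccno) before the start, so the place varied. Any matches on 1 chromosome were left out of the listing behind this range and the 7 genes shown, but not out of the shares that follow. Over 7 lists of cilium genes, 134 of 167 genes had a promoter entry (250 bases before to 50 after the start), and 25 of the 134 (18.7%) held the X-box letters. Of all 27025 genes with an entry, 673 (2.49%) held them, and of the 28 genes that fell in AML libraries 2 of the 24 with an entry (8.33%). A match of letters is a description and not a measured binding site.

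Markers that define other cell types were low or at 0 in these barcodes, while some genes of the alveolar type 1, mesenchymal, leukaemia and secretory lists were abundant. Sftpc, the surfactant gene of alveolar type 2 cells, was at 88.4 to 206 CPM over the 6 libraries, against 158890 to 222330 CPM in surfactant-rich barcodes. A list of 10 endothelial genes summed to 172, 113 and 157 CPM in AML 1, 2 and 3 and to 67.4, 153 and 108 CPM in Control 1, 2 and 3, against 17035 to 28487 CPM in endothelial barcodes. The rule capped Sftpc, Sftpb, Sftpa1, Cdh5, Pecam1 and Cldn5 in ciliated barcodes. The surfactant-rich and endothelial classes were chosen by these same genes, so both contrasts follow at least in part from the choice. The collagen gene Col1a1 and the basal cell gene Krt5 were at 0 in every library. The alveolar type 1 list of 8 genes summed to 1141, 825 and 1022 CPM in AML 1, 2 and 3 and to 1090, 1296 and 1415 CPM in Control 1, 2 and 3, against 1615 to 2506 CPM in surfactant-rich and 1466 to 2626 CPM in endothelial barcodes. Hopx (406 to 934 CPM) and Cldn18 (252 to 555 CPM) made up most of it, while Ager, the defining gene, was at 0 to 10.0 CPM, against 409 to 1050 CPM in surfactant-rich barcodes. Hopx had 605, 434 and 406 CPM in AML and 624, 934 and 778 CPM in Control libraries, without overlap and with no call (adjusted p = 0.122). Esm1, known as an endothelial product, was at 179 to 358 CPM in ciliated and at 12.4 to 78.0 CPM in endothelial barcodes. The mesenchymal list summed to 1535 to 2458 CPM, and of this Gsn, an actin-severing protein, made up 1513 to 2450 CPM. Leukocyte genes summed to 21.7 to 74.2 CPM and Ptprc was at 0 by the rule. Myb, which stands on the list of leukaemia genes but is also a factor of multiciliated cells, was at 248 to 333 CPM, with AML and Control values overlapping.

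Secretory genes of the airway were present in nearly every ciliated barcode. Scgb1a1, the main secretory protein of club cells, was found in 181 of the 184 (98.4%, median 12081 UMIs per barcode), in 495 of 846 surfactant-rich barcodes (58.5%, median 13671 UMIs) and in 2348 of 16031 endothelial barcodes (14.6%, median 4206 UMIs). Its level in ciliated barcodes was 2917, 4257 and 3155 CPM in AML 1, 2 and 3 and 1863, 2745 and 5007 CPM in Control 1, 2 and 3, and the highest in any library of surfactant-rich barcodes was 1073 CPM. Cyp2f2, the cytochrome P450 known from club cells, was also found in 181 ciliated barcodes, against 18.4% of surfactant-rich and 0.480% of endothelial barcodes. Its level was 2393, 2615 and 1819 CPM in AML 1, 2 and 3 and 1579, 1704 and 1530 CPM in Control 1, 2 and 3, against at most 80.0 CPM in surfactant-rich barcodes. How these genes came to be found in endothelial barcodes was not tested, nor was the part of free RNA in the ciliated levels. The endothelial barcodes held fewer UMIs, so their shares cannot be set directly beside the ciliated ones.

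Of the epithelial barcodes, ciliated plus surfactant-rich, ciliated cells made up 15.1, 12.6 and 19.6% in AML 1, 2 and 3 and 20.2, 24.2 and 17.7% in Control 1, 2 and 3. Among barcodes with no Ptprc and at most 1 leukaemia marker UMI the share was 0.729% in AML 1 (exact 95% binomial interval 0.485 to 1.05%), 0.668% in AML 2 (0.428 to 0.992%) and 1.23% in AML 3 (0.938 to 1.58%). It was 1.02% in Control 1 (0.595 to 1.63%), 0.854% in Control 2 (0.581 to 1.21%) and 0.738% in Control 3 (0.478 to 1.09%). The AML and Control shares overlapped, with means of 0.876 ± 0.308% and 0.871 ± 0.141% (SD, n = 3 each), and an exact two-sided permutation test gave p = 1. With 3 libraries against 3 this test cannot give a p below 0.1, and the intervals cover counting error only. The direction of this difference was not stable, since it turned when AML 3 was left out, with means of 0.698% in AML and 0.871% in Control libraries.

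Ciliated barcodes held fewer UMIs in every AML library than in any Control library. The median per barcode was 12770, 9324.5 and 6117 UMIs in AML 1, 2 and 3 and 28614, 15402 and 15552 UMIs in Control 1, 2 and 3 (means 9404 ± 3327 and 19856 ± 7585, SD, n = 3 each, exact two-sided permutation p = 0.1, the smallest this design allows). The groups did not overlap. Endothelial barcodes of the same libraries had medians of 3797, 4223.5 and 3041.5 UMIs in AML and 8533, 5423 and 4916 UMIs in Control libraries. When each ciliated barcode was thinned to 2000 UMIs, which left out 1, 0 and 4 barcodes in AML 1, 2 and 3 and 0, 1 and 0 in Control 1, 2 and 3, the median number of genes was 1310, 1262 and 1302 in AML and 1305, 1246.5 and 1275 in Control libraries, so that the groups overlapped. The part of depth in the results that follow was not tested, and levels below are CPM of the summed UMIs after TMM scaling (trimmed mean of M values, factors 0.985 to 1.02), except where other classes of barcodes stand beside them.

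The cilium machinery showed no gene past the threshold between AML and Control libraries. UMIs were summed per library and tested with edgeR's quasi-likelihood test, with Benjamini-Hochberg adjustment over 6505 genes and a threshold of 0.05, and 50 genes passed (0.769%), 22 higher in AML (0.338%) and 28 lower (0.43%). At an unadjusted p below 0.05 there were 596 genes (9.16%). Of 162 cilium genes in the count tables, without the markers of the rule, 146 passed the filter on low counts and 0 rose or fell. At an unadjusted p below 0.05 there were 14 (9.59%), close to the share over all genes. The AML and Control values did not overlap for 21 (14.4%), against 13.7% of all genes tested. The median log2 change was -0.11, with 94 of 146 below 0, against -0.00 over all genes tested. Together the 7 lists took 3.90, 3.33 and 3.54% of the UMIs in AML 1, 2 and 3 and 4.02, 3.90 and 3.56% in Control 1, 2 and 3, against at most 0.126% in surfactant-rich barcodes. That class was chosen to hold no UMI of the marker genes, so this contrast follows in part from the choice. Without AML 1, 6 genes of the 7 lists passed the threshold and were lower in AML.

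Within the machinery, each class of parts gave values of this kind. Among 27 genes of the dynein arms the median log2 change was -0.09, and Dnah5 had 739, 591 and 588 CPM in AML 1, 2 and 3 and 947, 820 and 585 CPM in Control 1, 2 and 3. The largest value there, named after the values were seen, was that of Tctex1d4, of the Tctex family of dynein light chains, with a log2 change of 0.65 ± 0.21 (SE, adjusted p = 0.148). Among 15 arm assembly factors the median was -0.15, and Cfap298 had 745, 631 and 623 CPM in AML and 517, 617 and 612 CPM in Control libraries, without overlap and with no call (adjusted p = 0.863). Among 27 genes of radial spokes and the central pair it was -0.14, with Rsph1 at 943, 904 and 712 CPM in AML and 820, 1053 and 976 CPM in Control libraries. Nexin links and axonemal rulers had a median of -0.19 over 15 genes, and microtubule inner proteins and tektins one of -0.03 over 23. Cfap52, a microtubule inner protein, had the lowest log2 change of the 146 genes, at 177, 75 and 86.3 CPM in AML and 193, 204 and 204 CPM in Control libraries (log2 change -0.81 ± 0.24, SE, adjusted p = 0.0968). Intraflagellar transport had a median of 0.04 over 25 genes, 14 above and 11 below 0. Basal bodies and deuterosomes, the bodies from which basal bodies multiply, had a median of -0.16 over 18.

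The transcription factors that govern these genes gave no call either. Over 9 tested factors the median log2 change was -0.16. Rfx2, also named after its values were seen, had 47.9, 57.3 and 51.3 CPM in AML 1, 2 and 3 and 129, 81.4 and 68.0 CPM in Control 1, 2 and 3, without overlap, at a log2 change of -0.85 ± 0.29 (SE, adjusted p = 0.225). Rfx3 had 102, 119 and 135 CPM in AML and 160, 124 and 141 CPM in Control libraries, with overlap. Foxj1, a gene of the rule, had 832, 962 and 821 CPM in AML and 1503, 908 and 1076 CPM in Control libraries.

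**Figure D2:**
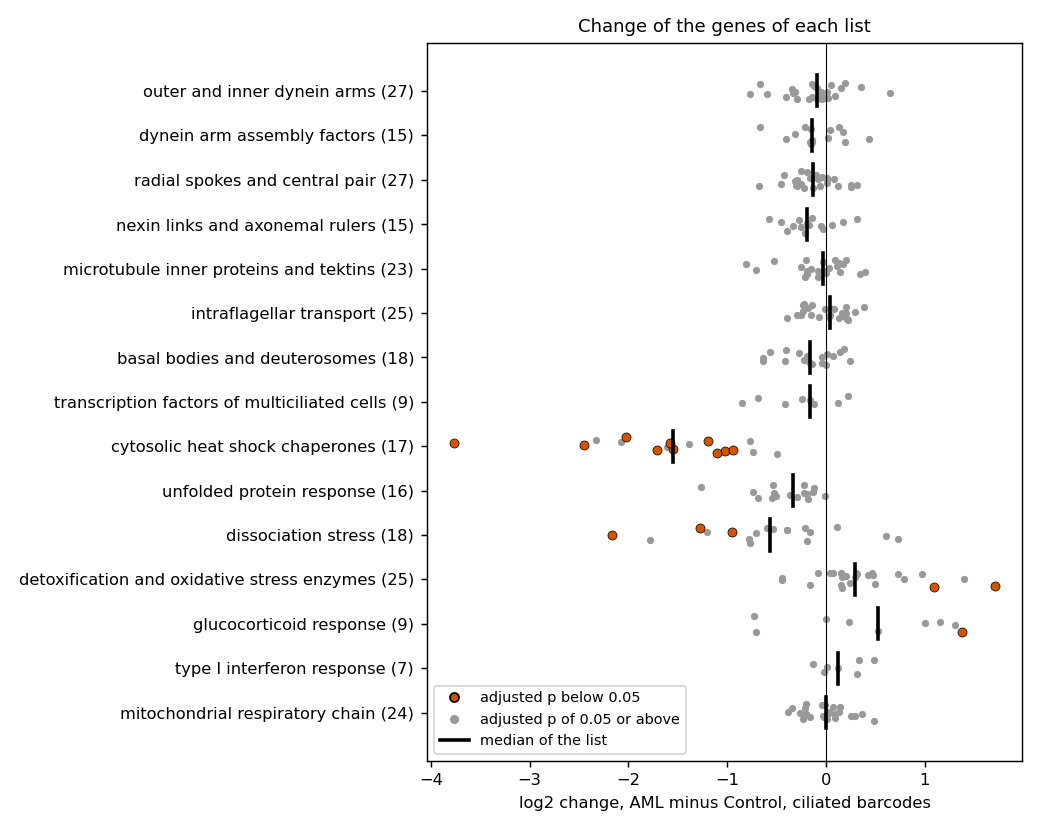
Log2 change between AML and Control libraries in ciliated barcodes for the genes of 15 lists, 1 point per gene (number tested in parentheses, vertical position within a row is jitter), with the list's median as a black bar. The medians of the 7 cilium lists lie between -0.19 and 0.04 and that of the heat shock chaperones at -1.55.

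Heat shock chaperones were lower in AML libraries as a group. Of 17 tested members of a list of cytosolic and mitochondrial chaperones, their co-chaperones and the factor Hsf1, which was chosen with earlier results of these data known, 10 fell and 0 rose, where 0.43% of all genes tested fell. All 17 had a log2 change below 0, with a median of -1.55, and AML and Control values did not overlap for 15, against 13.7% of all genes. These proteins hold newly made or damaged proteins in a foldable state, and their genes are known as the targets of Hsf1 in heat and other stress. Hsf1 itself had 18, 4.41 and 28.0 CPM in AML 1, 2 and 3 and 41.0, 24.4 and 31.6 CPM in Control 1, 2 and 3, with overlap and no call (adjusted p = 0.647). The list summed to 11878, 5577 and 5344 CPM in AML 1, 2 and 3 and to 20790, 16758 and 20542 CPM in Control 1, 2 and 3. The 3 AML sums lay below the 3 Control sums, with AML 1 the highest of the AML libraries.

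Dnajb1, the co-chaperone that hands substrates to Hsp70 (mm10, GENCODE M21, chr8:83608193-83612653, plus strand), had 47.9, 39.7 and 37.3 CPM in AML 1, 2 and 3 and 248, 195 and 240 CPM in Control 1, 2 and 3. Its AML values were close together and far below the Control values (log2 change -2.45 ± 0.26, SE, adjusted p = 4.00e-10). Hspa1b, an inducible Hsp70, had 12, 4.41 and 0 CPM in AML and 78.1, 52.9 and 89.8 CPM in Control libraries, from 5 UMIs in the AML and 103 in the Control sums (log2 change -3.77 ± 0.51, adjusted p = 3.52e-07). Hspa1a is a nearly identical copy, and how reads were divided between both is uncertain: it had 26.9, 8.82 and 4.67 CPM in AML and 27.3, 4.07 and 148 CPM in Control libraries, with overlap (adjusted p = 0.812). Hspb1, a small heat shock protein, had 59.9, 44.1 and 28.0 CPM in AML and 203, 124 and 199 CPM in Control libraries (log2 change -2.02 ± 0.28).

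The abundant members followed. Hsp90ab1, the constitutive cytosolic Hsp90, had 2837, 1469 and 1230 CPM in AML 1, 2 and 3 and 4158, 3950 and 4537 CPM in Control 1, 2 and 3 (log2 change -1.19 ± 0.23, adjusted p = 0.00172). This call was lost without AML 3 and without Control 1 (adjusted p up to 0.548). Dnaja1, another partner of Hsp70, had 587, 379 and 336 CPM in AML and 1171, 1370 and 1267 CPM in Control libraries (log2 change -1.55 ± 0.22, adjusted p = 1.61e-06). The mitochondrial pair Hspd1 and Hspe1, which together form the folding chamber of that organelle, fell by 1.02 ± 0.22 and by 1.71 ± 0.27 on the log2 scale. Hspa4l, a partner of Hsp70, and the Hsp90 co-chaperones Stip1 and Chordc1 fell too, by 0.95, 1.10 and 1.58 on the log2 scale. The call of Hspe1 was lost without Control 1, those of Hspd1, Stip1 and Hspa4l without AML 3, and that of Hspa4l also without AML 2. Hsp90aa1, at 4259, 1813 and 1514 CPM in AML and 7279, 5216 and 7371 CPM in Control libraries, did not overlap between the groups but missed the threshold (adjusted p = 0.114). So did Hspa8, the constitutive Hsp70, at 1422, 326 and 600 CPM in AML and 2221, 2105 and 2899 CPM in Control libraries (adjusted p = 0.489).

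Ahsa2, Serpinh1 and P4ha1 lie outside the list and fell as well. Ahsa2, an activator of Hsp90, had 26.9, 4.41 and 9.33 CPM in AML 1, 2 and 3 and 148, 104 and 121 CPM in Control 1, 2 and 3 (log2 change -3.11 ± 0.37, adjusted p = 9.36e-09). Serpinh1, the collagen chaperone of the endoplasmic reticulum, had 29.9, 13.2 and 16.3 CPM in AML and 103, 52.9 and 70.4 CPM in Control libraries (log2 change -1.89 ± 0.37). P4ha1, which hydroxylates collagen chains, fell by 1.62 ± 0.32 on the log2 scale and lost its call without AML 3 (adjusted p = 0.0598). It was the single call among 12 tested genes of the response to low oxygen. The groups did not overlap for any of these genes.

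**Figure D3:**
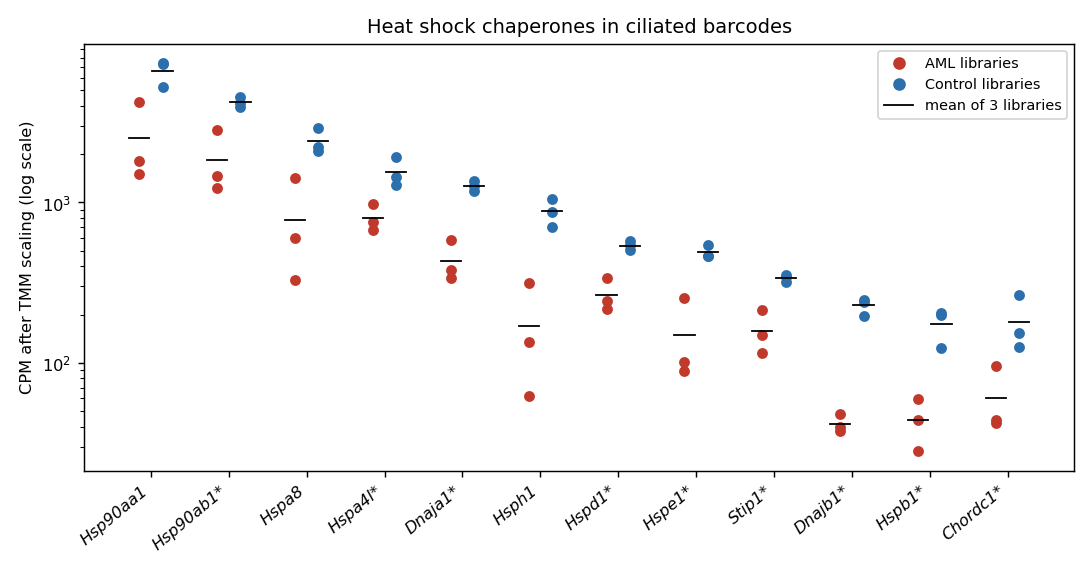
CPM after TMM scaling (log axis) of 12 heat shock chaperones in the ciliated barcodes of each AML (red) and Control (blue) library, with the mean of 3 libraries as a line; an asterisk marks an adjusted p below 0.05. In all 12 genes the AML points lie below the Control points, and Dnajb1 stands at 37.3 to 47.9 CPM in AML against 195 to 248 CPM in Control libraries.

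The difference was seen across the cells of each library. The list took a median of 1.09, 0.518 and 0.522% of the UMIs of a ciliated barcode in AML 1, 2 and 3 and of 2.02, 1.59 and 1.92% in Control 1, 2 and 3. The upper quartile was 1.28, 0.604 and 0.596% in AML libraries, below the lower quartile of 1.89, 1.31 and 1.69% in Control libraries. Dnajb1 was found in 10 of 28, 6 of 24 and 14 of 59 barcodes in AML 1, 2 and 3, and in 17 of 17, 26 of 31 and 23 of 25 in Control 1, 2 and 3. After thinning to 2000 UMIs per barcode the shares were 11.1, 8.33 and 10.9% in AML and 29.4, 26.7 and 36.0% in Control libraries, still without overlap. In surfactant-rich barcodes thinned in the same way the shares were 3.87, 4.88 and 5.04% in AML and 3.45, 2.13 and 1.84% in Control libraries. These thinned shares rest on few barcodes with a UMI of Dnajb1. Without thinning it was found in 36 of 158, 33 of 166 and 39 of 242 surfactant-rich barcodes in AML libraries. In Control libraries it was found in 33 of 67, 41 of 97 and 41 of 116, at a higher depth per barcode. Its log2 change in that class was -0.65 ± 0.20 (SE, edgeR adjusted p = 0.0819).

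Promoters of the chaperones that fell often carried a heat shock element, the site of Hsf1, written here in its short form GAANNTTC and shown in capitals. The stretches come from RefSeq promoters of GRCm38.p6, upstream of the start site, and are shown because 6 of the 9 members with a promoter entry held these letters (66.7%), against 2442 of 27025 genes (9.04%). They lie in Dnaja1 (chr4:40722324-40722371, plus strand), Hspa1b (chr17:34959315-34959362, minus strand), Hspb1 (chr5:135887802-135887849, plus strand, the nearer of its matches to the start), Hspd1 (chr1:55088044-55088091, minus strand) and Hspe1 (chr1:55088044-55088091, plus strand).
Dnaja1: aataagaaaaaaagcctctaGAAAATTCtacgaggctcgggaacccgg
Hspa1b: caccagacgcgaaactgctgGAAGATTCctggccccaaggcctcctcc
Hspb1: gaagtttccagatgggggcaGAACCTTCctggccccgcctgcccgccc
Hspd1: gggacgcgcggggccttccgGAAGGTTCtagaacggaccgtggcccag
Hspe1: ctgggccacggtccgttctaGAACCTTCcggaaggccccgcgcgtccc
Hspd1 and Hspe1 stand head to head on the chromosome, and their stretches are both strands of 1 site. Chordc1 held the letters across its start site and Dnajb1 did not hold them in this window. Of the 16 genes with an entry among the 22 that rose, 1 held them (6.25%). Of the 24 with an entry among all 28 that fell, these chaperones included, 8 held them (33.3%). The listed chaperones are known targets of Hsf1 and those that did not fall were not compared, so nothing is read from these shares about the fall.

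Chaperones were also lower in AML libraries in other cells of the same lungs, by a smaller step. In surfactant-rich barcodes 6 of the 17 fell and 0 rose, where 1.5% of the genes tested in that class fell (2.94% changed in either direction), with a median log2 change of -0.65 and 15 below 0. In endothelial barcodes 7 fell and 0 rose, where 1.54% of the genes tested fell (2.49% changed in either direction), with a median of -0.54 and 15 below 0. In a fit over both classes with the library as a block, the change was more negative in ciliated than in surfactant-rich barcodes for 15 of the 17 and passed the threshold in that direction for 4 (0.42% of all genes tested, and 0.789% in either direction). Against endothelial barcodes it was more negative for 16 and passed for 3 (0.722% of all genes tested, and 1.58% in either direction). Dnajb1 differed from both, by -1.82 ± 0.31 and by -2.06 ± 0.28 on the log2 scale (SE), and Hspe1 by -1.49 ± 0.26 and by -1.35 ± 0.21. Serpinh1 fell in surfactant-rich barcodes (-1.80) and in endothelial barcodes (-0.98) too, with no difference past the threshold. The classes come from the same libraries, so they are not separate evidence.

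Immediate early genes, which cells switch on within minutes of a stimulus and also during tissue digestion, moved in part with the chaperones. Of 18 tested members of a list of such genes 3 fell (Atf3, Jun and Nr4a1) and 0 rose, where 0.43% of all genes tested fell, and the median log2 change was -0.57. The count rested on single libraries. It was 6, 4 and 1 without AML 1, 2 and 3, and 0, 7 and 2 without Control 1, 2 and 3, while DESeq2 gave 1. Atf3, a stress factor, had 44.9, 57.3 and 23.3 CPM in AML 1, 2 and 3 and 238, 79.4 and 214 CPM in Control 1, 2 and 3 (log2 change -2.16 ± 0.44, SE, adjusted p = 0.0487). The Control libraries ranged widely and Control 2 was the nearest to the AML values. Over all libraries 287 UMIs of Atf3 lay in 43 of the 184 barcodes, with up to 68 in 1 of them. The call of Atf3 was lost without Control 1 and with DESeq2's size factors. It was also lost without the Scrublet doublets and when only barcodes of 2000 UMIs or more were used. Those of Jun and Nr4a1 were lost without AML 3, Control 1 or Control 3 and with DESeq2, that of Jun also without AML 2 and that of Nr4a1 without AML 1. The list summed to 6115, 6146 and 4974 CPM in AML 1, 2 and 3 and to 7918, 5872 and 12130 CPM in Control 1, 2 and 3, so that Control 2 lay within the AML range, whereas the chaperone sum of Control 2 did not. The part of digestion or handling in these results was not tested.

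The genes that rose in AML libraries held enzymes of detoxification and redox balance, a cold-inducible RNA-binding gene and genes of transport and secretion. Sult1d1, a sulfotransferase (mm10, chr5:87554645-87569027, minus strand), had 485, 415 and 296 CPM in AML 1, 2 and 3 and 135, 134 and 94.7 CPM in Control 1, 2 and 3 (log2 change 1.70 ± 0.22, SE, adjusted p = 1.84e-07). All AML values lay above all Control values, and no UMI of the gene was found in the 846 surfactant-rich barcodes. The sums rested on few barcodes. The highest single barcode held 54, 45 and 40 of the 162, 94 and 127 UMIs in AML 1, 2 and 3. In Control 1, 2 and 3 it held 37, 20 and 15 of 69, 66 and 39. The share of barcodes with the gene was 32.1, 37.5 and 25.4% in AML and 35.3, 22.6 and 32.0% in Control libraries, with overlap. Shares after thinning overlapped too. Whether the rise holds beyond these few barcodes was not tested. Clic3, an intracellular chloride channel protein, had 296, 388 and 457 CPM in AML and 82.0, 159 and 155 CPM in Control libraries (log2 change 1.54 ± 0.23, adjusted p = 4.80e-06). Rbm3, an RNA-binding protein induced by mild cold, had 428, 803 and 677 CPM in AML and 215, 316 and 240 CPM in Control libraries (log2 change 1.30 ± 0.22). AML 1 was the lowest of the AML libraries in Clic3 and Rbm3 and the highest in Sult1d1. Cirbp, the other cold-inducible gene of this list, had 126, 494 and 315 CPM in AML and 68.3, 69.2 and 63.1 CPM in Control libraries, without overlap, and missed the threshold (adjusted p = 0.143). It passed in surfactant-rich barcodes, with a log2 change of 1.88, and in endothelial barcodes, with one of 1.92.

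Of 25 tested detoxification enzymes 2 rose and 0 fell, where 0.338% of all genes rose. Without AML 1 the count that rose was 6 and without Control 3 it was 4, each of 26 tested, and with DESeq2 it was 1. At an unadjusted p below 0.05 there were 11 of the 25, where 9.16% of all genes tested lay below it. AML and Control values did not overlap for 12, against 13.7% of all genes tested. The median log2 change was 0.29, with 21 above 0. Txnrd1, the cytosolic thioredoxin reductase, had 563, 798 and 600 CPM in AML 1, 2 and 3 and 281, 224 and 415 CPM in Control 1, 2 and 3 (log2 change 1.09 ± 0.22, adjusted p = 0.00180), and with Control 2 left out it missed the threshold (adjusted p = 0.0860). Gsta3, a glutathione transferase, had 44.9, 61.8 and 39.7 CPM in AML and 9.76, 18.3 and 14.6 CPM in Control libraries (log2 change 1.71 ± 0.41, adjusted p = 0.0172), and lost its call without AML 2, without Control 1 and with DESeq2. Cyp4b1 and Gsta4 did not overlap either and missed the threshold (log2 changes 0.79 and 0.73, adjusted p = 0.0525 and 0.0889). The most abundant member, the carbonyl reductase Cbr2, had 8520, 9519 and 7311 CPM in AML and 6590, 8099 and 7948 CPM in Control libraries, with overlap. Cyp2a5, whose close copies make its counts uncertain, had 272, 150 and 457 CPM in AML and 89.8, 169 and 82.5 CPM in Control libraries, with overlap.

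Other enzymes of redox and lipid metabolism were among the named genes. Cbr3, a carbonyl reductase, had 180, 357 and 173 CPM in AML 1, 2 and 3 and 58.6, 99.8 and 102 CPM in Control 1, 2 and 3 (log2 change 1.41 ± 0.26), and missed the threshold without Control 1 (adjusted p = 0.0650). Akr1c14, a steroid dehydrogenase of the aldo-keto reductase family, had 305, 379 and 317 CPM in AML and 178, 151 and 117 CPM in Control libraries (log2 change 1.15 ± 0.22, adjusted p = 0.000752). Acsl4, which loads fatty acids such as arachidonate onto coenzyme A, rose by 1.35 ± 0.33, with the call lost in 6 of 16 alternative settings. Pex11a, a factor of peroxisome division, rose by 1.12 ± 0.30 with the call lost in 10 of the 16. Pdk4, which restrains the use of pyruvate and stands on the list of glucocorticoid targets, had 44.9, 146 and 121 CPM in AML and 33.2, 36.6 and 48.6 CPM in Control libraries, with overlap between AML 1 and Control 3. Its call was lost in 5 of the 16. The metallothionein Mt1 of the same list had 1885, 5165 and 3295 CPM in AML and 1068, 2176 and 1915 CPM in Control libraries, with overlap and no call (adjusted p = 0.407).

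Further genes that rose had roles in signalling, transport and growth. Nupr1, a stress-induced regulator of transcription, had 874, 1134 and 789 CPM in AML 1, 2 and 3 and 349, 478 and 459 CPM in Control 1, 2 and 3 (log2 change 1.11 ± 0.22, adjusted p = 0.00113). Rrs1, a factor of ribosome assembly, had 68.8, 83.8 and 46.7 CPM in AML and 21.5, 18.3 and 14.6 CPM in Control libraries (log2 change 1.79 ± 0.37). Atp1b1, a subunit of the sodium pump, had 401, 873 and 607 CPM in AML and 277, 277 and 354 CPM in Control libraries (log2 change 1.04 ± 0.23). It was the single call among 6 tested genes of ion and water transport, and it was lost without AML 2, without Control 1 and without Control 2. The groups did not overlap for these 3 genes, nor for the tetraspanin Tspan2, the protease inhibitor A2ml1, the membrane fusion protein Stx19 and Traf3ip2, the adaptor of the interleukin 17 receptor, which rose by 1.09, 1.18, 1.56 and 1.20 on the log2 scale. Their calls were lost in 2, 1, 3 and 6 of the 16 alternative settings. Lypd2 was the single call among 5 tested club and goblet secretory genes, at 254, 300 and 429 CPM in AML and 127, 134 and 228 CPM in Control libraries (log2 change 1.03 ± 0.23), and this call was lost in 4 of the 16.

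Genes that fell outside the chaperones included Wif1, a secreted inhibitor of Wnt proteins. It had 38.9, 57.3 and 65.3 CPM in AML 1, 2 and 3 and 182, 118 and 129 CPM in Control 1, 2 and 3 (log2 change -1.40 ± 0.27, adjusted p = 0.00113), and its CPM over all other barcodes was 0.0193 times that in ciliated ones. Calml3, a relative of calmodulin, had 15, 8.82 and 23.3 CPM in AML and 60.5, 97.7 and 34.0 CPM in Control libraries (log2 change -1.92 ± 0.40), and lost its call without Control 2 and with DESeq2. The calcium release channel Ryr2, the sodium channel subunit Scn3b and Dlec1 fell by 1.34, 1.37 and 1.34 on the log2 scale, each without overlap and from 23 to 29 UMIs in the AML sums. Their calls were lost in 5, 8 and 4 of the 16 alternative settings, in each case with DESeq2, without AML 2, without AML 3 and without Control 1.

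Other programmes that an infiltrating leukaemia could touch gave no call. Of 7 tested type I interferon genes 0 passed, with 0 at an unadjusted p below 0.05 and a median log2 change of 0.12. Ifi35, the most abundant, had 287, 75 and 198 CPM in AML 1, 2 and 3 and 176, 271 and 187 CPM in Control 1, 2 and 3. Of 9 genes of MHC class I presentation 0 passed and the median was -0.03. An unadjusted p below 0.05 was found for 3 of them, against 9.16% of all genes tested. Of 24 genes of the mitochondrial respiratory chain 0 passed and 1 had an unadjusted p below 0.05, at a median of 0.00. Of 9 targets of p53 0 passed, and of 8 genes of the Notch pathway 0 passed at a median of -0.39. All 16 tested genes of the unfolded protein response, the stress response of the endoplasmic reticulum, had values below 0 at a median of -0.33. Of these 0 passed, with 7 at an unadjusted p below 0.05, against 9.16% of all genes tested. Hspa5, the Hsp70 of that compartment, had 766, 507 and 352 CPM in AML and 884, 668 and 745 CPM in Control libraries, with overlap.

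Of the 50 genes called in ciliated barcodes, 12 changed by a different amount than in surfactant-rich barcodes and 16 than in endothelial barcodes. The 50 were chosen for their change in ciliated barcodes, which itself favours such a difference, so these counts are a description and nothing is read from them against the 0.789% and 1.58% of all genes tested that differed. Sult1d1, Wif1 and Calml3 were too low for a test of change in the surfactant-rich class. Atf3 had a log2 change of -2.16 in ciliated, of 0.63 in surfactant-rich and of 0.57 in endothelial barcodes, and differed from both (-2.89 ± 0.32 and -2.59 ± 0.29, SE). Clic3 had 1.54 in ciliated, 0.35 in surfactant-rich and 1.14 in endothelial barcodes and differed from the surfactant-rich class (1.14 ± 0.20). Cbr3 had 1.41 in ciliated and 1.65 in surfactant-rich barcodes, and -0.22 in endothelial barcodes, from which it differed (1.68). Rbm3 had 1.30, 1.65 and 1.59 in the ciliated, surfactant-rich and endothelial classes, and passed the threshold in each with no difference past it. The change of Arid5b, a DNA-binding factor, differed from that in surfactant-rich barcodes by 1.44 ± 0.20, with 309, 361 and 351 CPM (without TMM scaling) in AML and 220, 267 and 213 CPM in Control libraries in ciliated barcodes. It had 156, 101 and 116 CPM in AML and 309, 234 and 242 CPM in Control libraries in surfactant-rich barcodes.

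**Figure D4:**
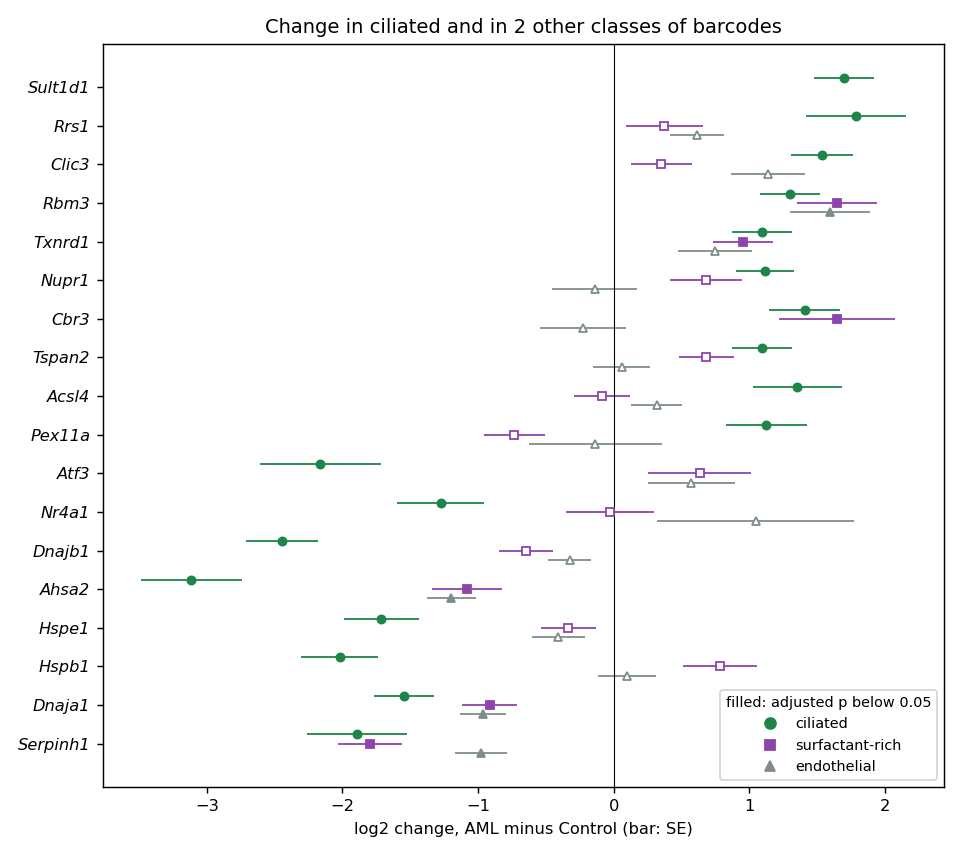
Log2 change between AML and Control libraries (point, with its SE as a bar) of 18 named genes in ciliated (circles), surfactant-rich (squares) and endothelial (triangles) barcodes; filled symbols have an adjusted p below 0.05 within their class and a missing symbol was too low to test. Rbm3, Ahsa2, Dnaja1 and Serpinh1 are filled in all 3 classes, and Atf3 lies at -2.16 in ciliated barcodes and above 0 in the others.

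The ciliated barcodes also differed among themselves, within libraries. As a description with no test, genes with at least 150 UMIs were ranked by how far their spread over barcodes of 1 library passed that of counting. Of 3259 genes the first were the stress gene Atf3, then Sult1d1, and then Id1 and Id3, inhibitors of helix-loop-helix factors. The marker genes of the rule stood at ranks 1478 to 1814, and Dnajb1 at 881. Sult1d1 was concentrated in few cells: 557 UMIs were found in 54 of the 184 barcodes, at most 54 in 1 barcode. Barcodes with 3 or more UMIs of it numbered 7 of 28, 4 of 24 and 7 of 59 in AML 1, 2 and 3 and 3 of 17, 6 of 31 and 3 of 25 in Control 1, 2 and 3.

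The 30 barcodes with 3 or more Sult1d1 UMIs nearly lacked Cldn18, a claudin of tight junctions. Cldn18 was present in 3 of these 30 (10.0%), against 96 of the 130 barcodes without Sult1d1 (73.8%), although the first had more UMIs per barcode (median 14677.5, against 11496). Its level, averaged over the libraries, was 10.4 CPM in barcodes with 3 or more Sult1d1 UMIs and 600 CPM in those without Sult1d1. The 24 barcodes with 1 or 2 Sult1d1 UMIs were left out of this contrast, and 10 of them held Cldn18 (41.7%). Id3 and Id1, the cyclin gene Ccnd2 and the calcium-binding S100a6 were likewise lower in every library in barcodes with 3 or more Sult1d1 UMIs than in those without. The levels were 7.56 against 116 CPM for Id3, 9.07 against 244 CPM for Ccnd2 and 251 against 1337 CPM for S100a6. Ifitm1, a membrane protein of the interferon-induced family, was higher in every library, at 269 against 39.7 CPM, and so was Cyp2f2, at 3158 against 1525 CPM. Foxj1 was at 1119 against 980 CPM, higher in 4 of 6 libraries. Of 2259 genes compared, 173 were lower and 89 higher in every library in barcodes with 3 or more Sult1d1 UMIs. The genes named here were picked among the 2259 after their values were seen, so the contrast is a description.

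**Figure D5:**
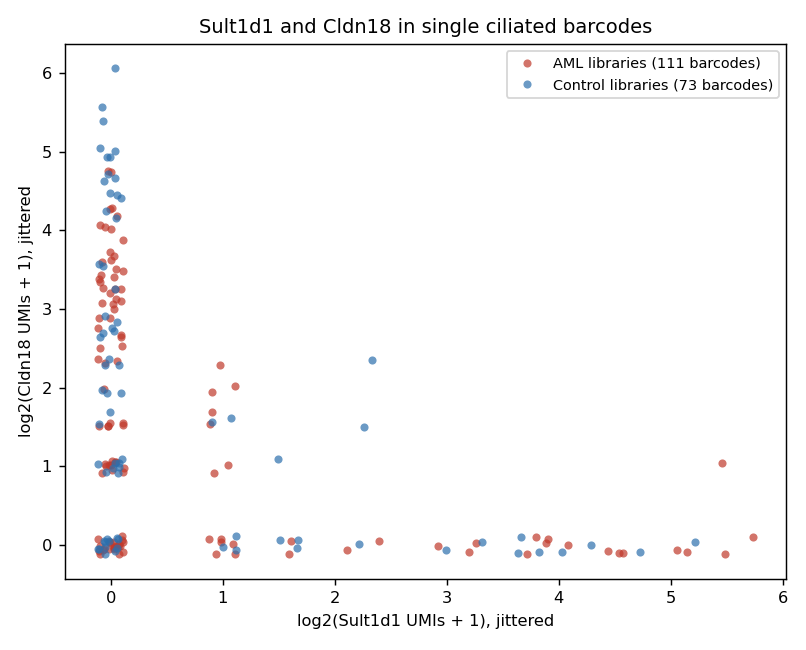
UMIs of Sult1d1 and of Cldn18, each as log2(UMIs + 1) with jitter, in the 184 ciliated barcodes, coloured by AML and Control libraries. Barcodes of both groups lie along both axes, and few hold both genes.

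Genes of cells that are still building cilia were found in part of the barcodes. Deup1, which serves the massed production of basal bodies, was found in 11, 10 and 14 barcodes of AML 1, 2 and 3 and in 15, 10 and 12 of Control 1, 2 and 3, and in none of the 846 surfactant-rich barcodes. Ccno, another gene of that stage, was found in 21 of the 184, and in 1 to 7 surfactant-rich barcodes of each library. Cdc20b and Mcidas, also of that stage, were found in 0 of 184, which allows a share of up to 1.63% of barcodes with a UMI. The proliferation gene Mki67 was found in 2. Xist, the transcript of the inactive X chromosome, was found in 174 barcodes and in every library, and the Y-linked Ddx3y in 1.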

How the data were processed

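The deposited files hold unnormalized UMI counts, for every gene in every cell barcode, of 10x Chromium 3' v3.1 libraries, aligned to mm10. The authors made these counts with Cell Ranger, version 6.0.1 per the file headers and 7.0.0 per the submitters' processing notes. Barcodes with under 500 genes (3415) or over 15% mitochondrial UMIs (461) were removed, and classes were set by the marker rules given in the opening. Surfactant-rich barcodes had 5% or more surfactant UMIs and at most 1 UMI of the endothelial genes. Endothelial barcodes had 3 or more UMIs of the endothelial genes and less than 5% surfactant UMIs. Both classes had to hold no UMI of the marker genes of the rule, no Ptprc and at most 1 leukaemia marker UMI. Low levels of cilium genes in them therefore follow at least in part from the choice. No barcode was removed as a doublet, and the main results were repeated without the 895 top-scoring barcodes of Scrublet (scanpy 1.11.5, 0.8% per 1000 barcodes).

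UMIs were summed per library and class and tested with edgeR 4.0.16 (R 4.3.3, quasi-likelihood with robust fit, TMM, its default low-count filter, Benjamini-Hochberg adjustment). Differences between classes were tested in 1 fit with the library as a block. Single values were tested with exact permutation (scipy 1.17.1). The scripts were tested on simulated data. DESeq2 1.42.0, other scalings, filters, marker thresholds and left-out libraries were alternatives.

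The members, gene lists and tests were chosen with earlier results of these data known. Named genes passed an adjusted p of 0.05, did not overlap between groups and had a mean of 50 CPM or more in the higher group, at most 15 per direction by log2 change, besides members of lists past the threshold and their most abundant members. No files with values per sample were left out. Depth was 230227 to 504662 UMIs per library in ciliated barcodes. Binomial intervals and limits from a count of 0 (3 counts) cover counting error only. No library was counted as a repeat of another, since chi-square values of replicate pairs were 1.92 to 4.52 times those of sampling noise.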

Additional observations from a re-analysis of the deposited data

Results flagged for a closer look

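These genes changed by different amounts between AML and Control libraries in ciliated barcodes and in another class of the same libraries, by an edgeR interaction fit with the library as a block (adjusted p below 0.05). Values are ciliated minus other class on the log2 scale. The classes share libraries.

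Against surfactant-rich barcodes, the change was more negative in ciliated barcodes for the stress factor Atf3 (-2.89), the chaperone genes Dnajb1 (-1.82), Ahsa2 (-2.08), Hspe1 (-1.49), Dnaja1 (-0.70) and Hspa4l (-0.84), the epithelial surface protein Plet1 (-2.74), the deubiquitinase Usp2 (-2.66) and tissue factor F3 (-1.29). Plet1 had 218, 156 and 213 CPM in AML and 373, 295 and 326 CPM in Control libraries in ciliated barcodes, against 20.3, 54.4 and 46.0 CPM in AML and 12.7, 8.53 and 11.7 CPM in Control libraries in surfactant-rich barcodes. The change was more positive in ciliated barcodes for Arid5b (1.44), the glucocorticoid-induced Tsc22d3 (1.67), Clic3 (1.14), the sulfate transporter Slc26a2 (1.38), Pex11a (1.82), Stx19 (1.60) and Acsl4 (1.39). Slc26a2 had a log2 change of 0.05 in ciliated and of -1.36 in surfactant-rich barcodes. Usp2 and F3 had -0.21 and 0.42 in ciliated barcodes, with no call there, and 2.59 and 1.75 in surfactant-rich barcodes. Their differences missed the threshold with DESeq2 (adjusted p = 0.0530 and 0.244).

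Against endothelial barcodes, the change was more negative in ciliated barcodes for Marcks, a substrate of protein kinase C (-2.30), Atf3 (-2.59), Nr4a1 (-2.11), Dnajb1 (-2.06), Hspb1 (-2.07), Ahsa2 (-1.93), Hspe1 (-1.35), the taurine transporter Slc6a6 (-1.79), the mitochondrial carrier Ucp2 (-1.64), Hopx (-1.49) and Myb (-4.40). Myb had 266, 248 and 327 CPM in AML and 311, 287 and 333 CPM in Control libraries in ciliated barcodes. In endothelial barcodes it had 1.39, 1.37 and 2.03 CPM in AML and 0, 0.054 and 0.151 CPM in Control libraries. The AML suspensions held added leukaemia cells, whose part in that endothelial level was not tested. The change was more positive in ciliated barcodes for Esm1 (2.05), Cyp4b1 (1.69), Ankrd44 (1.73), Stx19 (3.02), Cbr3 (1.68), Acsl4 (1.11), Traf3ip2 (1.88), Nupr1 (1.25) and Tspan2 (1.10). Slc6a6, Ucp2 and Ankrd44 had log2 changes of -0.29, -0.07 and 0.13 in ciliated barcodes, with no call there. In endothelial barcodes they had 1.60, 1.62 and -1.50. Esm1, known as an endothelial product, had 254, 243 and 358 CPM in AML and 218, 179 and 259 CPM in Control libraries in ciliated barcodes, against 30.0, 12.4 and 17.2 CPM in AML and 45.5, 63.5 and 78.0 CPM in Control libraries in endothelial barcodes.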

How the results depend on the processing

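The 50 genes that changed in ciliated barcodes became 31 with DESeq2, 85 without the low-count filter and 31 to 130 when 1 library was left out (130 without AML 1, 31 without AML 3, 92 without Control 3). The 77 differences from surfactant-rich barcodes became 13 with DESeq2 and 37 to 189 with a library left out. The 214 differences from endothelial barcodes became 28 with DESeq2, 102 with 17 barcodes per library and 109 to 292 with a library left out. Their split, 116 more positive and 98 more negative, became 77 and 139 without mitochondrial genes and Gm42418, an alternative chosen after seeing the data, and 27 and 75 with equal barcodes. The split of the surfactant-rich comparison, 36 and 41, became 40 and 31 with DESeq2's size factors. The difference in the share of ciliated barcodes (0.00476 percentage points, AML minus Control) turned to -0.144 over all barcodes past the filters, -4.97 over epithelial barcodes and -0.0405 at a marker sum of 10 or more, and ran from -0.172 to 0.109 with a library left out. That in median UMIs kept its sign, from -12679 to -6073. The cause of these shifts was not tested.

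No named gene turned its direction. Ahsa2, Akr1c14, Clic3, Dnaja1, Dnajb1, Hspb1, Nupr1, Rbm3, Rrs1, Serpinh1 and Sult1d1 passed the threshold in all 16 alternatives, and Hspa1b in the 15 in which it was tested. Of the 39 named changes, 21 to 37 kept their call with a library left out and 26 with DESeq2. The chaperones that fell numbered 7 without AML 3, 8 without Control 1 and 14 without Control 3.

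Libraries of the same number did not deviate together (correlations -0.0406, -0.0365 and -0.0333), so the numbers were not used for pairing. With the number as a replicate block 99 genes changed, among them all 50. The smallest sum over ciliated barcodes was 230227 UMIs, in AML 2, so genes of low CPM rest on few UMIs there.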

Other observations

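Genes of the epithelial state showed no call in ciliated barcodes. Of 13 tested epithelial identity genes 0 passed, with a median log2 change of 0.20. At an unadjusted p below 0.05 there was 1, against 9.16% of all genes tested. Epcam had 596, 701 and 649 CPM after TMM scaling in AML 1, 2 and 3 and 422, 582 and 549 CPM in Control 1, 2 and 3, without overlap, and the lung factor Nkx2-1 had 183, 150 and 194 CPM in AML and 228, 220 and 279 CPM in Control libraries, likewise without overlap (adjusted p = 0.519). Tubulins, the building blocks of the axoneme, and their modifying enzymes had a median of -0.17 over 10 genes, and the stabilising protein Tppp3 was the most abundant at 2624, 2241 and 2119 CPM in AML and 3199, 2637 and 2683 CPM in Control libraries (adjusted p = 0.761). Of 12 circadian clock genes 0 passed at a median of -0.25. Dbp, a clock output factor, had 62.8, 48.5 and 67.7 CPM in AML and 133, 128 and 85.0 CPM in Control libraries, without overlap (adjusted p = 0.0950).

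The chemokine Cxcl17, the most abundant of 4 tested inflammatory genes, had 443, 803 and 700 CPM in AML 1, 2 and 3 and 203, 391 and 493 CPM in Control 1, 2 and 3, with overlap and no call (adjusted p = 0.191). The sodium channel subunit Scnn1a had 383, 697 and 555 CPM in AML and 305, 332 and 342 CPM in Control libraries, without overlap, and missed the threshold (log2 change 0.73, adjusted p = 0.0950). The Notch ligand Jag1 had 156, 66.2 and 180 CPM in AML and 283, 216 and 216 CPM in Control libraries, without overlap (adjusted p = 0.127). These genes were named after their values were seen.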
